A study of Mus musculus with 24 samples.

Results

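Of the 37620 genes in the expression table, 7 are described here: the markers of C-low-threshold mechanoreceptors (C-LTMRs) Th, Slc17a8 and Fam19a4 (also called Tafa4), and the catecholamine genes Ddc, Dbh, Slc18a2 and Slc6a2. They were chosen by name, to see whether Th, which is shared by both sets, comes with the rest of the catecholamine pathway in dorsal root ganglia (DRG). Each gene matched 1 row. RNA was sequenced from whole lumbar or sacral DRG of C57Bl6 mice aged 6 to 8 weeks, with nerve roots trimmed away, and the lowest lumbar ganglion was pooled by the study with the first sacral one. No agent or altered allele is named for any group. The groups were lumbar male (5 samples), sacral male (5), lumbar female (7) and sacral female (7). By the mouse numbers in the labels, the 24 samples came from 13 mice, 11 of which (5 male and 6 female) gave both levels. A set of 5 female samples formed batch 1 and the other 19 samples formed batch 2. The batches stand for libraries made at different facilities. The labels hold 8 female mouse numbers, 2 of them with a single sample, and the methods name fewer females, so the number of animals is uncertain.

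C-LTMRs are unmyelinated sensory neurons of hairy skin that respond to gentle touch. In mice they are recognised by tyrosine hydroxylase (Th), by the vesicular glutamate transporter VGLUT3 (Slc17a8) and by the secreted protein TAFA4 (Fam19a4). Tyrosine hydroxylase makes L-DOPA from tyrosine, and catecholamine neurons then need aromatic L-amino acid decarboxylase (Ddc) to make dopamine, the vesicular monoamine transporter VMAT2 (Slc18a2) to load it into vesicles, dopamine beta-hydroxylase (Dbh) to make noradrenaline, and the noradrenaline transporter (Slc6a2) to take it back up; sympathetic neurons, which lie near the DRG, use the whole set.

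Th had the highest level of the 7 genes, far above Ddc, Dbh and Slc6a2. The table holds log2 RPKM (log2 of reads scaled to gene length and library size), from which the whole reads of the 7 genes could be recovered. Effective library sizes ran from 27.6 to 44.6 M reads, with a median of 39.6 M. Pooled over the 24 samples, Th had 31684 reads, which is 14.6 RPKM. Fam19a4 had 8717 reads (4.35 RPKM), Slc17a8 had 18597 reads (4.29 RPKM) and Slc18a2 had 10803 reads (3.09 RPKM), and each of these 4 genes had over 100 reads in every sample. Slc6a2 had 877 reads (0.154 RPKM), Ddc had 193 reads (0.0482 RPKM) and Dbh had 2 reads (0.000808 RPKM). Per length, Th was 4.72-fold above Slc18a2, 94.4-fold above Slc6a2 and 302-fold above Ddc. The last 2 ratios rest on few samples: without sacral female 22 the ratio to Slc6a2 was 157, and without lumbar male 14 the ratio to Ddc was 610. The ratio to Slc18a2 differed by batch. Pooled levels of Th and Slc18a2 were 29.7 and 3.03 RPKM in batch 1, and 11.5 and 3.10 RPKM in batch 2. Against the 2 reads of Dbh the ratio was 18040, with a 95% interval, from counting error only, of 4994 to 149000. A count of 0 in a library allows up to 3 reads, which in the shallowest library is 0.0404 RPKM for Dbh and 0.025 RPKM for Ddc.

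**Figure D1:**
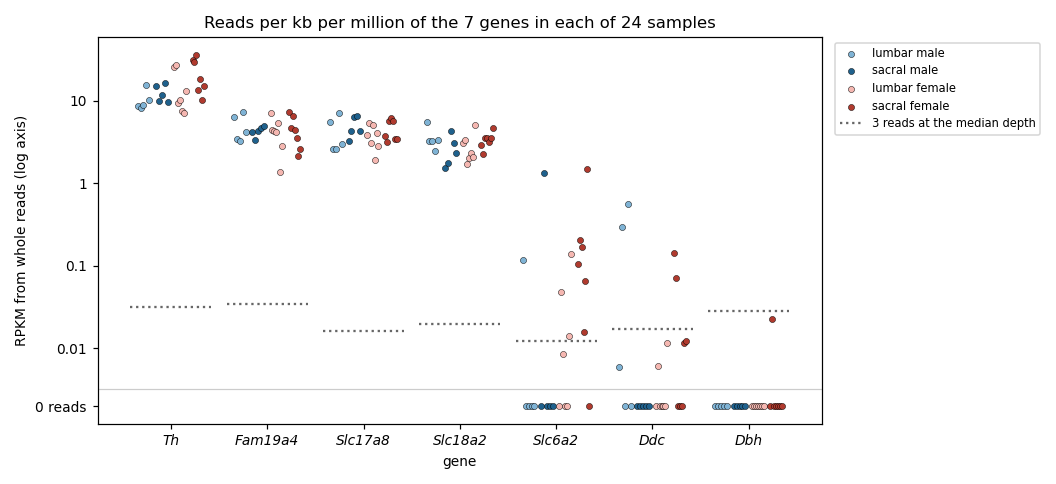
RPKM from whole reads, before the subtraction of the batch difference, of each of the 7 genes (x axis) in each of the 24 samples (points, coloured by group) on a log y axis, with samples without reads on the bottom line and the level of 3 reads dotted. Th, Fam19a4, Slc17a8 and Slc18a2 had reads in all samples, Slc6a2 in 12, Ddc in 9 and Dbh in 1.

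Th was above Slc17a8, Fam19a4 and Slc18a2 in 24 of 24 samples on the deposited scale, by a mean of 2.09 ± 0.45 (SD), 1.85 ± 0.58 and 2.61 ± 0.56 log2 units, so that its place in the order exceeded the spread. The other detected genes were closer to each other. Fam19a4 was above Slc17a8 in 15 of 24 samples (0.24 ± 0.63), and Slc17a8 was above Slc18a2 in 18 of 24 (0.52 ± 0.64), both differences being smaller than their SD. Fam19a4 was above Slc18a2 in 19 of 24, by 0.77 ± 0.73. Batch bears on these levels. The authors had subtracted the batch difference gene by gene, and before that subtraction the median level of Th was 29.0 RPKM in the 5 samples of batch 1 and 10.2 RPKM in the 19 samples of batch 2, with no overlap (lowest in batch 1, 25.4 RPKM, and highest in batch 2, 18.5 RPKM). For Fam19a4 the medians were 6.46 and 4.16 RPKM, and for Slc17a8 3.88 and 4.11 RPKM. Slc18a2 had a mean of 1.58 log2 RPKM in batch 1 and 1.54 in batch 2. Batch 1 held only females, so levels were compared between groups on the deposited, batch-subtracted scale.

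The positions of the genes on mm9 (GENCODE M1, whole gene with introns) are as follows. Th (ENSMUSG00000000214) lies on chromosome 7 from 150078657 to 150117033 on the minus strand, and Slc18a2 (ENSMUSG00000025094) on chromosome 19 from 59335368 to 59370502 on the plus strand. Slc17a8 (ENSMUSG00000019935) lies on chromosome 10 from 89036765 to 89083998 and Fam19a4 (ENSMUSG00000046500) on chromosome 6 from 96781203 to 97010405, both on the minus strand. Ddc (ENSMUSG00000020182) lies on chromosome 11 from 11714104 to 11798047 on the minus strand, Dbh (ENSMUSG00000000889) on chromosome 2 from 27020753 to 27038720 on the plus strand, and Slc6a2 (ENSMUSG00000055368) on chromosome 8 from 95483978 to 95525566 on the plus strand. Ddc alone overlaps another annotated gene, 1700042O10Rik on the opposite strand, which had reads in 1 of 24 samples, and in none of the 3 samples with over 10 reads of Ddc.

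The promoters of Th and Slc18a2, the catecholamine genes with reads in every sample, and of Dbh, which had almost none, are shown to compare their sequence. The windows lie at chr7:142899946-142900245 (Th, minus strand), chr19:59260628-59260927 (Slc18a2, plus strand) and chr2:27165257-27165556 (Dbh, plus strand). Each is the RefSeq window of 300 bases from 250 before to 50 after the annotated start, on GRCm38.p6 (a later build than the expression table), 5′ to 3′ on the strand of the gene. Capitals mark matches to the cyclic AMP response element TGACGTCA and the AP-1 site TGANTCA, both searched on both strands.
Th: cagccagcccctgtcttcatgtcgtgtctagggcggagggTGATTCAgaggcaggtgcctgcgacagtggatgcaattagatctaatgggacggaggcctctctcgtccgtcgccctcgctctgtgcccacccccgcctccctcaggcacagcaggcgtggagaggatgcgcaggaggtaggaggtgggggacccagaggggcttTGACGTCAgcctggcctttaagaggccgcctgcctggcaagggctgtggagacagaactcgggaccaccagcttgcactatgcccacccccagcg
Slc18a2: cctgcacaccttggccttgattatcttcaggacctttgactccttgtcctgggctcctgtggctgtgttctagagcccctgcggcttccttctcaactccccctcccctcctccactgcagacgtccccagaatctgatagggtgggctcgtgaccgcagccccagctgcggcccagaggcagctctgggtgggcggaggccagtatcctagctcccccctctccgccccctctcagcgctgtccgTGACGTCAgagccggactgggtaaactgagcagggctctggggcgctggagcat
Dbh: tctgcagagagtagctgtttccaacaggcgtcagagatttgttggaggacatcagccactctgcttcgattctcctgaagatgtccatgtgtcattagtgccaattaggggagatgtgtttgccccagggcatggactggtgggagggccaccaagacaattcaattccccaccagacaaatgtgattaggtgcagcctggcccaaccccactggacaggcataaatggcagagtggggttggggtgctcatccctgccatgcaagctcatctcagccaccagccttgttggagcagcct
Th and Slc18a2 each held 1 full TGACGTCA, at positions -45 to -38 and -4 to 3 from the start base (counted as 0). Of all 32851 such windows, 1.79% held these letters. Th also held TGATTCA, a match to TGANTCA, at -210 to -204 (7.81% of windows held a match), and 1 of the 2 windows of Ddc held TGAATCA at -129 to -123. The TATA box TATAAA (13.6% of windows) matched, on the opposite strand, in that same window of Ddc alone, and the RUNX letters TGTGGT (16.8%) in none of the 8 windows, which cover 6 of the 7 genes. Slc6a2 had no window to search. These matches describe letters and say nothing of binding.

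The tissue carried the markers of sensory ganglia. The sensory neuron genes Avil, Isl1, Pou4f1 and Prdm12 were measured in all samples, with group means from 3.11 (Isl1, lumbar male) to 6.95 (Prdm12, lumbar male) log2 RPKM. In contrast, of 7 markers of sympathetic neurons, Hand1 and Hand2 had no reads in any sample, and Phox2a had 47, Npy 37, Slc10a4 59 and Gata3 210 reads over all 24 samples. The summed level of these sympathetic genes ran from 0 to 0.362 RPKM in lumbar and from 0 to 1.28 RPKM in sacral samples. The summed level of 7 myelinating Schwann cell genes, including myelin basic protein (Mbp), ran from 2207 to 5027 RPKM in lumbar and from 1085 to 2664 RPKM in sacral samples, and was lower in sacral DRG of 11 of 11 mice. The sum rests mainly on Pmp22, with group means from 10.42 to 11.60 log2 RPKM, beside 5.75 to 7.14 for Mbp. Taken singly, 5 of the 7 were called lower in sacral DRG by limma, and Mag and Egr2 were not. In whole ganglia, fewer cells of a type and less RNA per cell cannot be told apart.

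Between levels, Th was higher in sacral DRG in most mice, but not past the threshold over all genes. In lumbar males Th was at 3.78, 3.72, 3.82, 4.63 and 4.03 log2 RPKM (mice 11 to 15), and in sacral males of the same mice at 4.57, 3.97, 4.23, 4.69 and 3.94. Lumbar females ran from 3.48 to 4.38 with a median of 3.99 (n = 7), and sacral females from 4.02 to 4.88 with a median of 4.41 (n = 7). The ranges of the levels overlapped in both sexes, although 10 of 11 mice with both samples were higher in the sacral one, male 15 being the exception. The within-mouse change averaged 0.40 ± 0.39 log2 units (SD, n = 11) and ran from -0.09 in male 15 to 1.32 in female 21. The limma fit held the 4 group means, batch and the mouse as a block. In it the change of Th was 0.39 ± 0.13 (SE), or 1.31-fold (95% interval 1.08 to 1.58), with a limma adjusted p of 0.138 (Benjamini-Hochberg over 12644 genes tested; unadjusted, 0.00771). An exact two-sided sign-flip test over the 11 mice, for this gene alone, gave p = 0.00391. In that comparison 2.44% of all genes tested (309 of 12644) passed an adjusted p of 0.05, and 14.1% had an unadjusted p under 0.05. With the mouse as a fixed block, 157 genes passed, and the change of Th was again 0.39 (adjusted p = 0.164).

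The estimate of Th depended on whether markers of other cells entered the model. When the mean of the Schwann cell genes entered as a covariate it was 0.12 (adjusted p = 0.975), and 5 of all genes tested passed in that fit. The covariate is a mean of log2 values. The summed RPKM of these genes was lower in the sacral sample of 11 of 11 mice. Taken singly, each of them was higher there in at most 2 of 11 mice. The level of these genes and the ganglion level thus cannot be told apart. With the mean of 6 pan-neuronal genes as a covariate it was 0.46 and passed (adjusted p = 0.0492), the one setting in which it did. The summed RPKM of these neuronal genes, a measure other than the mean log2 value used as the covariate, was lower in the sacral sample of 8 of 11 mice. Snap25, the gene with the highest level of the 6, weighs most in that sum and was called lower in sacral DRG (-0.32; adjusted p = 0.0458). Taken singly, Uchl1, Tubb3, Stmn2 and Elavl4 were higher in the sacral sample of 6, 6, 7 and 8 of 11 mice. Snap25 and Rbfox3 were higher there in 3 of 11 each. In batch 2 alone it was 0.44 (adjusted p = 0.194), and in the 2 paired mice of batch 1 the change was 0.09 and 0.31.

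Slc17a8, which loads glutamate into vesicles, did not pass the test between levels. Its values in lumbar males were 2.53, 1.44, 1.46, 2.91 and 1.65 log2 RPKM, and in sacral males 1.78, 2.16, 2.76, 2.78 and 2.19. Lumbar females ran from 1.00 to 2.40 (median 1.88) and sacral females from 1.58 to 2.70 (median 1.84). The groups overlapped over most of their ranges, and 6 of 11 mice were higher in the sacral sample. The change was 0.29 ± 0.21 (SE; 95% interval -0.14 to 0.73; adjusted p = 0.588 in limma).

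Fam19a4, a secreted protein of the TAFA family, did not differ between levels beyond the spread. Its values in males were 3.09, 2.22, 2.13, 3.32 and 2.50 log2 RPKM in lumbar DRG and 2.52, 2.17, 2.54, 2.65 and 2.76 in sacral DRG. Lumbar females ran from 0.88 to 2.88 (median 2.37) and sacral females from 1.54 to 2.58 (median 2.25), so the sacral values lay inside the lumbar range. The lowest value, 0.88 in lumbar female 22, rested on 103 reads. The change was -0.07 ± 0.21 (95% interval -0.50 to 0.35; adjusted p = 0.923 in limma), with 6 of 11 mice higher in the sacral sample.

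Slc18a2, the vesicular monoamine transporter, was likewise not different between levels beyond the spread. In males its values were 2.45, 1.69, 1.71, 1.30 and 1.72 log2 RPKM in lumbar DRG and 0.62, 0.82, 2.10, 1.61 and 1.20 in sacral DRG. Lumbar females ran from 0.75 to 2.34 (median 1.21) and sacral females from 1.19 to 2.22 (median 1.79). Male 11 fell by 1.83 and female 19 rose by 1.07 on the log2 scale between the samples of 1 mouse, the extremes of the 11 pairs, and the change was -0.08 ± 0.21 (95% interval -0.51 to 0.35; adjusted p = 0.911 in limma). Mast cells also carry this transporter. Of 8 mast cell markers, 8 had reads in some sample, their summed level ran from 1.12 to 8.11 RPKM in lumbar and from 0.401 to 9.71 RPKM in sacral samples, and their part in the level of Slc18a2 was not tested.

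**Figure D2:**
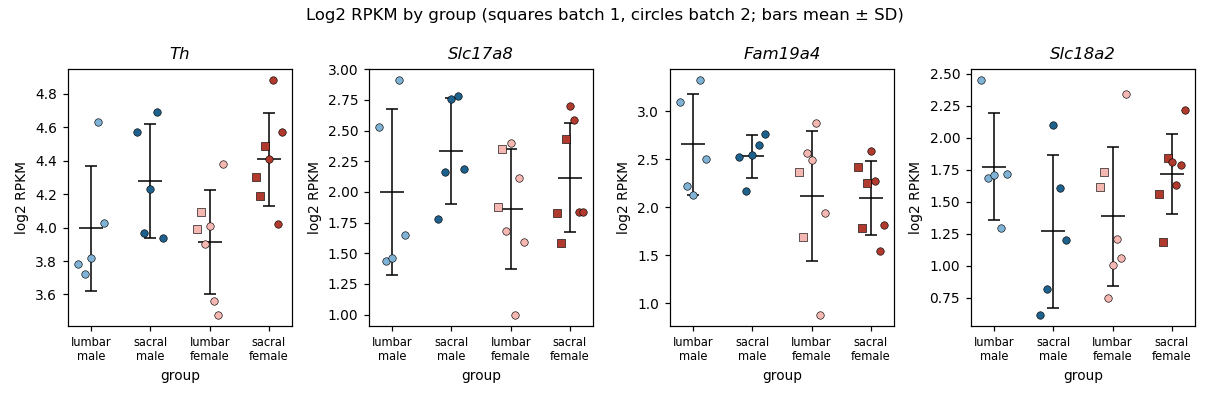
Log2 RPKM (y axis) of the 4 detected genes by group (x axis), 1 point a sample, squares for batch 1 and circles for batch 2, with the mean and SD as bars. The groups overlap for each gene; group means of Th ran from 3.92 in lumbar females to 4.41 in sacral females.

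**Figure D3:**
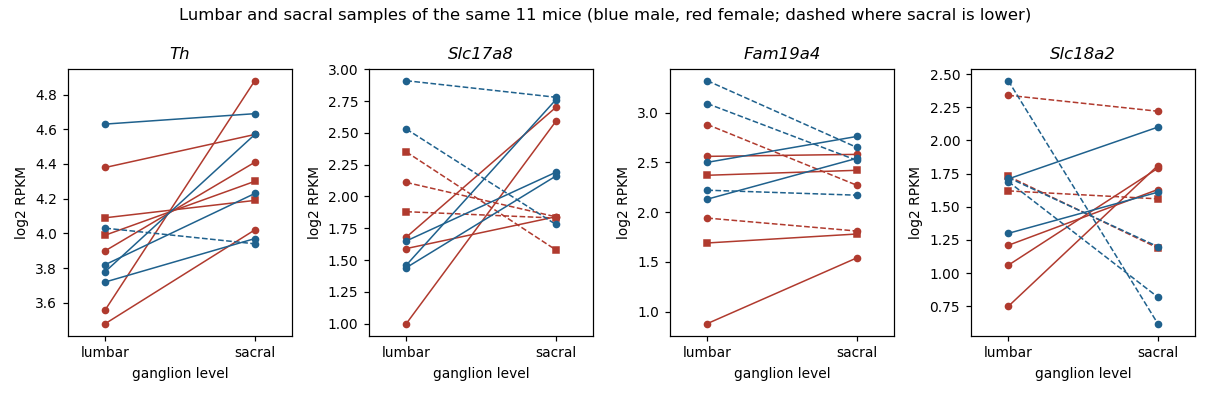
Log2 RPKM (y axis) of the 4 detected genes in the lumbar and sacral samples (x axis) of the same 11 mice, 1 line a mouse, blue for males and red for females, dashed where the sacral value was lower. Lines rise for Th in 10 of 11 mice, for Slc17a8 and Fam19a4 in 6 and for Slc18a2 in 5.

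The change of Th was set against that of each other detected gene in the same mouse. The log2 ratio of Th to Fam19a4 was higher in the sacral sample of 7 of 11 mice, by 0.45 ± 0.67 (SD), with p = 0.0391 in an exact two-sided sign-flip test and 0.103 after adjustment over the 3 ratios tested. The ratio of Th to Slc18a2 was higher in 8 of 11 mice, by 0.49 ± 0.87 (p = 0.0684, exact, and 0.103 adjusted), and that of Th to Slc17a8 in 5 of 11, by 0.09 ± 0.75 (p = 0.711, exact, and 0.711 adjusted). None of the ratios passed after adjustment, and without female 21 the change of the ratio to Fam19a4 was 0.30 (p = 0.0781, exact). The change of the ratio to Slc18a2 was 0.28 without male 11 and 0.59 without female 19 (unadjusted p = 0.0234, exact). Ratios to Ddc, Dbh and Slc6a2 were not formed, since these genes had no reads in at least 12 of 24 samples.

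A shared variation of Th with the other genes from mouse to mouse was not shown. Within each level, over 12 mice and after centring each sex, Pearson's r of Th with Slc17a8 was 0.472 in lumbar and 0.426 in sacral DRG, with Fam19a4 0.333 and 0.379, and with Slc18a2 0.170 and 0.170. Spearman's rho was 0.503 and 0.301, 0.210 and 0.294, and 0.147 and 0.196. None of these 6 relations passed a permutation test within sex (unadjusted p from 0.155 to 0.640 for r; adjusted p from 0.451 to 0.640). Without the 2 samples farthest from the median of Th, the r with Slc17a8 in sacral DRG was 0.101. In batch 2 alone the r with Slc17a8 was 0.442 and 0.333, with Fam19a4 0.386 and 0.408, and with Slc18a2 0.115 and 0.0444.

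As a description over all 24 samples, with the mean of each group removed, 12120 other genes with a value in every sample were ranked by their r with Th. Slc17a8 was at rank 694 (r = 0.451), Fam19a4 at 1807 (r = 0.337) and Slc18a2 at 4429 (r = 0.170), where the median gene had an r of 0.0788. In the ranking by r with Slc17a8, Th was at rank 321, above the 95th percentile of that ranking (r = 0.398), whereas Slc17a8 was below the 95th percentile of the ranking by r with Th (r = 0.463). The genes most like Th were Slc36a1, a lysosomal amino acid transporter (r = 0.781), Ngfr, the p75 neurotrophin receptor (0.774), Dgki (0.757), Ppp5c (0.744), Npr2, a natriuretic peptide receptor (0.741), D030016E14Rik (0.739), B230217C12Rik, listed under 2 identifiers (0.738 and 0.737), Paqr9 (0.734) and Hmgb3 (0.733). For Slc17a8 the leading genes were Cdc34 (0.721), Gm16418 (0.704), Ngfrap1 (0.692), Dhx29 (0.689) and 3110043O21Rik (0.683), and for Fam19a4 they were Slc44a2 (0.749), Adipor1 (0.743), Ralgds (0.735), Sae1 (0.706) and Asf1a (0.705). Slc17a8 and Fam19a4 had an r of 0.245 with each other. The samples share library depth and tissue composition, so these values carry no test.

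Ddc, the enzyme that follows tyrosine hydroxylase, was found in few samples. It had no reads in 15 of 24 samples. In lumbar males the reads were 1, 56, 0, 102 and 0 (mice 11 to 15), and in sacral males 0 in each of the 5. In lumbar females only 2 samples had reads (1 and 2), and in sacral females 4 of 7 did (17, 10, 2 and 2). Lumbar males 14 and 12 together held 158 of the 193 reads (81.9%). Lumbar male 14 had 1519 reads of Th, the most of the 10 male samples, and at 4.63 log2 RPKM the highest level of the 12 lumbar samples. Lumbar male 12 had 851 reads of Th, within the male range of 777 to 1519. Neither sample had reads of Dbh or Slc6a2. Of the sympathetic markers, lumbar male 12 had 2 reads of Phox2a and 3 of Slc10a4, and lumbar male 14 had 2 of Gata3 and 1 of Slc10a4.

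Slc6a2 had reads in 12 of 24 samples and was just as uneven. Among males only lumbar male 11 (28 reads) and sacral male 12 (322 reads) had any. Lumbar females had 0, 11, 2, 0, 0, 3 and 34 reads, and sacral females 18, 41, 32, 4, 17, 365 and 0. Sacral female 22 and sacral male 12 held 687 of the 877 reads (78.3%). The sympathetic markers of these 2 samples summed to 0.0255 and 0.229 RPKM, Dbh had no reads in either, and Ddc had 2 and 0 reads.

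Dbh had 2 reads in sacral female 12 of batch 1 and none in the other 23 samples. The 2 samples with most reads of Ddc and the 2 with most of Slc6a2 were different ones without Dbh, although lumbar male 12 and sacral male 12 came from the same mouse. At lower counts no single pattern held. Sacral females 11 and 12 of batch 1 had 17 and 10 reads of Ddc beside 18 and 41 of Slc6a2, and the latter sample held the 2 reads of Dbh, but sacral female 13 of that batch had 0 reads of Ddc beside 32 of Slc6a2, and lumbar female 23 of batch 2 had 2 beside 34. The batch 1 samples had values for 20508 to 21338 genes, against 17527 to 18558 in batch 2, and the part of this in the reads of rare genes was not tested. The 3 genes did not reach the minimum of a mean log2 RPKM of 0 in any group and were left out of the main test. In a fit of all genes without that minimum, with an empty cell set to 0.5 reads, none passed between levels (limma adjusted p = 0.797 for Ddc, 0.827 for Dbh and 0.752 for Slc6a2). The estimates for these genes depend on that filling value.

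**Figure D4:**
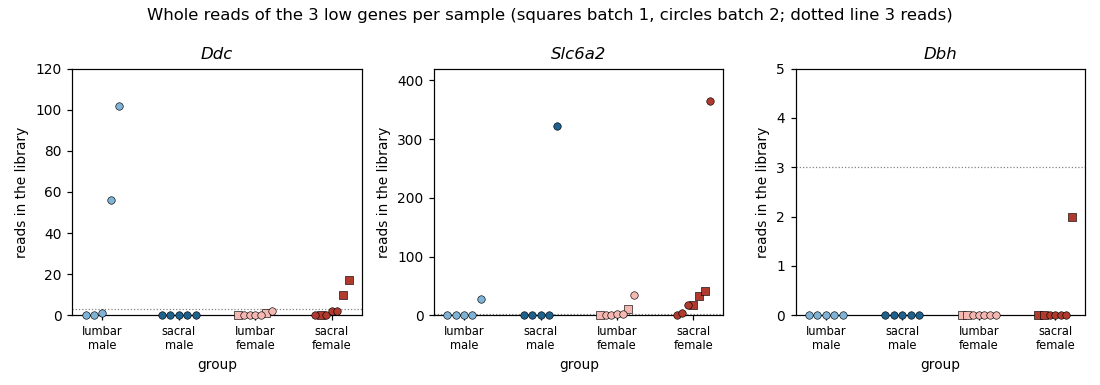
Whole reads (y axis, linear from 0, scaled per panel) of Ddc, Slc6a2 and Dbh by group (x axis), 1 point a sample, squares for batch 1 and circles for batch 2, with 3 reads dotted. Most samples lie at 0; the highest are 102 reads for Ddc, 365 for Slc6a2 and 2 for Dbh.

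Sex did not separate the 4 detected genes at either level. In lumbar DRG the female minus male difference was -0.08 ± 0.19 (SE) for Th, -0.14 ± 0.31 for Slc17a8, -0.54 ± 0.30 for Fam19a4 and -0.39 ± 0.30 for Slc18a2 on the log2 scale (limma adjusted p from 0.710 to 0.954). In sacral DRG it was 0.13 ± 0.20, -0.22 ± 0.32, -0.44 ± 0.31 and 0.45 ± 0.31 (adjusted p from 0.712 to 0.893). Fam19a4 was lower in the female mean at both levels, with intervals of -1.16 to 0.08 and -1.08 to 0.21 that include 0. Without female 22 these differences were -0.25 and -0.22. Over all mice left out in turn they ran from -0.71 to -0.25 in lumbar and from -0.59 to -0.22 in sacral DRG. None of the 4 genes was called between sexes or in males or females alone, where the share of all genes tested that passed was 0.0475% (lumbar) and 0.0791% (sacral) between sexes, and 0.649% (males) and 0.451% (females) between levels. Within females the change of Th between levels was 0.49 ± 0.17 (higher in 6 of 6 mice, adjusted p = 0.354) and within males 0.29 ± 0.20 (4 of 5 mice, adjusted p = 0.652).

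The difference of the level change between sexes (females minus males) was tested as an interaction in limma. It was 0.20 ± 0.27 for Th, -0.08 ± 0.43 for Slc17a8, 0.10 ± 0.41 for Fam19a4 and 0.84 ± 0.42 for Slc18a2, with an adjusted p of 0.999 for each. Slc18a2 had an unadjusted p of 0.0549, its change being -0.50 ± 0.32 in males and 0.34 ± 0.27 in females. In this comparison 0 of 12644 genes passed (0%), with 581 at an unadjusted p under 0.05, and 0 passed in a limma-voom fit of the recovered reads (559 at an unadjusted p under 0.05). Over the 6 comparisons, Th was the only one of the 4 genes with an unadjusted p under 0.05 in the limma test, in both sexes together and in females, and the voom fit called 0 of the 4 in any of them. In the voom fit the interaction of Slc18a2 was 0.85 (adjusted p = 0.999; unadjusted, 0.0435).

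The other genes of the catecholamine pathway were taken from 7 lists of 40 genes in all. Of these, 35 had reads in some sample and 17 were high enough to test between levels. The test called 4 of the 17 higher and none lower in sacral DRG, where 1.15% and 1.29% of all genes tested passed in these directions. Maob, which was called, and Drd2, which was not, met the minimum level only in sacral females (means of 1.11 and 0.54 log2 RPKM). Their entry thus rested on the group where they were highest. The lists were also written with earlier results of these data known, so this count is a description and no test of the pathway. Markers of some neuron types moved with the level as well, while 0 of 8 non-peptidergic markers (median change -0.02) and 0 of the 4 general sensory neuron markers (median 0.01) were called in either direction by limma (at an unadjusted p under 0.05, 0 and 1, the latter Isl1). Of 8 peptidergic markers 6 were called higher, among them Trpv1 (1.22 ± 0.17), the heat-gated channel, and Adcyap1 (1.20 ± 0.16). The summed level of the 8, which rests mainly on Calca and Tac1, ran from 396 to 628 RPKM in lumbar and from 639 to 1233 RPKM in sacral samples. Of 7 markers of myelinated neurons 3 were called lower and 1 higher. Their summed level, which rests mainly on Nefh, ran from 263 to 370 RPKM in lumbar and from 163 to 281 RPKM in sacral samples. Every marker on both lists had reads, and the part of neuron types in the changes of the pathway genes was not tested. The median change of the 17 was 0.25, beside 0.01 over all genes tested.

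Tetrahydrobiopterin is the cofactor of tyrosine hydroxylase, and 5 of its 6 genes were tested. Pcbd1, which recycles the cofactor, rose from 2.66 ± 1.27 (SD, n = 5) to 4.09 ± 0.32 log2 RPKM in males and from 2.82 ± 0.58 (n = 7) to 3.93 ± 0.38 in females, by 1.27 ± 0.27 (SE; adjusted p = 0.00808; higher in 11 of 11 mice). Gch1, the rate-limiting enzyme of cofactor synthesis, had 0 to 304 reads and a change of 1.47 ± 0.88 that did not pass (adjusted p = 0.482), although 10 of 11 mice were higher in the sacral sample. Pts (0.29), Spr (0.27) and Qdpr (-0.13) did not pass.

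Of the genes that carry or degrade monoamines, Slc29a4, the plasma membrane monoamine transporter, rose from 2.36 ± 0.40 to 3.58 ± 0.26 log2 RPKM in males and from 2.08 ± 0.63 to 3.07 ± 0.34 in females, by 1.10 ± 0.19 (adjusted p = 0.000782; 11 of 11 mice). The dopamine transporter Slc6a3 had 2 reads in 1 sample, and the adrenaline-forming Pnmt had none. Maob, a mitochondrial monoamine oxidase, rose by 3.39 ± 0.78 (adjusted p = 0.0156; 10 of 11 mice) from a level near 0, with 0 to 287 reads a sample, and the size of its change depends on how low values are treated (1.05 on the log2(RPKM + 1) scale). It did not pass with the mouse as a fixed block (adjusted p = 0.0567) or without male 15 (0.0553). Maoa, the other mitochondrial monoamine oxidase, had 776 to 2165 reads a sample and did not pass (0.21; adjusted p = 0.492).

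Of the 4 granule genes, the secretogranin Scg2 rose from 6.59 ± 0.18 to 7.34 ± 0.20 log2 RPKM in males and from 6.59 ± 0.15 to 7.22 ± 0.19 in females, by 0.70 ± 0.08 (adjusted p = 9.74e-06; 11 of 11 mice). Chga (-0.37), Chgb (-0.22) and Cyb561 (0.25) did not pass, and were higher in the sacral sample of 1, 4 and 6 of 11 mice. Among 14 receptors only Drd2, Adra2a and Adra2c were tested and none passed, Drd2 with 1.44 ± 0.68 (adjusted p = 0.334). Of 8 transcription factors of noradrenergic neurons only Nr4a2 was tested (-0.49 ± 0.20; adjusted p = 0.245). Once the Schwann cell score was in the model, the change was 1.10 for Slc29a4 (limma adjusted p = 0.452), 0.59 for Scg2 (0.134), 0.86 for Pcbd1 (0.835) and 2.41 for Maob (0.843), so that none was called in a fit that called 5 genes in all.

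**Figure D5:**
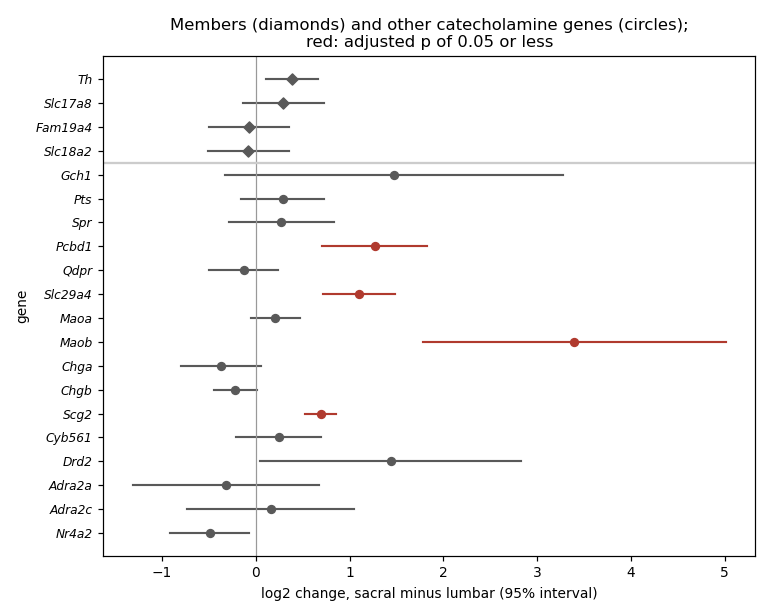
Log2 change, sacral minus lumbar (x axis), with its 95% interval in limma, for the 4 detected members (diamonds) and for other catecholamine genes tested (circles, y axis); red marks an adjusted p of 0.05 or less. Pcbd1, Slc29a4, Maob and Scg2 are red, and the interval of Th runs from 0.11 to 0.66.

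Relatives and further C-LTMR genes give the setting. Of 8 other genes used to describe C-LTMRs, 7 were tested, and Cacna1h, a T-type calcium channel, was the one called (0.57 ± 0.15; adjusted p = 0.0441; 11 of 11 mice), a call that 14 of 29 alternative analyses kept. The call was lost with the mouse as a fixed block (0.57; adjusted p = 0.0676) and in batch 2 alone (0.60; adjusted p = 0.127), at a change of about the same size. Gfra2, a receptor subunit for neurturin, was at 0.00 ± 0.12 and the transcription factor Runx1 at 0.10 ± 0.11. The glutamate transporter Slc17a6 rose (0.41 ± 0.10; adjusted p = 0.0263), and Slc17a7 was at -0.62 ± 0.18 (adjusted p = 0.075). The call of Slc17a6 was kept in 20 of 29 alternative analyses, though not with the mouse as a fixed block (0.40; adjusted p = 0.109). Its change ran from 0.36 to 0.49 over all settings. The 4 relatives of Fam19a4 had estimates below 0, from -0.44 to -0.31, and none passed. The tryptophan hydroxylases Tph1 and Tph2, which are related to tyrosine hydroxylase, had 78 and 208 reads over all 24 samples, beside 31684 of Th.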

How the data were processed

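RNA of whole ganglia was amplified (NuGEN Ovation v2), made into Nextera XT libraries and sequenced on a HiSeq2500. Per the labels and the study's methods, the authors aligned reads to mm9 with Subread (versions 1.18 and 1.20.6 are listed), counted them with featureCounts, normalised with edgeR 3.12.1 and limma 3.26.9, and subtracted the batch difference. The deposited values are log2 RPKM, and some columns are named by a number only. A blank cell means 0 reads. Whole reads were recovered in all samples for 12597 of the 12602 tested genes with an annotated length (tolerance 0.0001 reads). RPKM was computed again from recovered reads. Intervals and floors cover counting error only, and depth in the text is the effective library size so recovered.

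The 7 members and the gene lists were chosen with earlier results of these data known. Genes tested had a mean log2 RPKM of at least 0 in a group, and blanks were set to 0.5 reads. Tests used limma 3.58.1 (R 4.3.3) with 4 group means, batch and the mouse as a random block (estimated correlation -0.0175), an intensity trend and Benjamini-Hochberg adjustment. A gene was called at an adjusted p of 0.05 or less. The fit was tested on simulated data. Samples of 1 mouse number and sex were taken as 1 animal. Their deviations from the group means correlated by -0.219 to 0.0376 over 11 mice (mean -0.0404). Tests of 1 value were exact sign-flip tests, or permutations with 100000 resamples. Text names all members, every list gene called, the most abundant genes of a role, and the genes nearest to Th, Slc17a8 and Fam19a4; others were chosen after their values were seen. Of 6 ratios and 12 correlations planned, 3 and 6 could be formed. Other settings were the block, low values, scaling, batch, weights, covariates and leaving out each mouse. The voom fit on the recovered reads was added after seeing the data. Some items are not reported here.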

Additional observations from a re-analysis of the deposited data

Results flagged for a closer look

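In each of the 4 groups, the highest and lowest sample of the members were compared with the rest of the group by Dixon's test, in 24 sets of values, and 5 samples stood apart at the high end. Chance gives about 1 in 20 such groups where values are normally distributed. That rate does not apply here, since in 3 of the 5 the rest of the group had no reads and any read would stand apart. Sacral female 12 of batch 1 had 2 reads of Dbh, where the other 6 sacral females had none. For Slc6a2, lumbar male 11 had 28 reads and sacral male 12 had 322 reads, where the other males of each group had none. Lumbar female 23 had 34 reads of Slc6a2 and sacral female 22 had 365 reads, where the next highest samples of their groups had 11 and 41 reads.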

How the results depend on the processing

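Of the 4 detected members, Th alone was called under any other setting. It was called between levels in 1 of 29 settings, with the pan-neuronal score as a covariate, which made 1 member called in place of 0. Its change ran from 0.12 to 0.46 over all settings and from 0.32 to 0.44 leaving out a mouse. Once the Schwann cell score entered the model, 0 of the other catecholamine genes were called in place of 4, though Slc29a4 was at 1.10 and Scg2 at 0.59, and the change of Th in males was -0.02. With the mouse as a fixed replicate block, the change of Th was 0.39 (adjusted p = 0.164), 3 of the other catecholamine genes were called, and 157 genes in all in place of 309. Without any replicate block 318 were called.

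The following estimates changed sign, with none called. In batch 2 alone, Slc17a8 was 0.15 for the interaction and Slc18a2 0.05 between levels. With the Schwann cell score Slc18a2 was 0.04. Fam19a4 between levels in females was 0.02 with the fixed block and with either score. Leaving out each mouse in turn, with both signs arising, gave a range of -0.18 to 0.08 for Th and -0.28 to 0.09 for Slc17a8 between sexes in lumbar DRG, and -0.35 to 0.16 for Slc17a8 in the interaction. For Fam19a4 it gave -0.26 to 0.01 between levels in males, -0.09 to 0.05 in females and -0.03 to 0.24 in the interaction, and for Slc18a2 -0.19 to 0.08 between levels, the sign turning without male 11. The level change of the ratio of Th to Slc17a8 ran from -0.06 (without male 11) to 0.18, and was -0.03 in batch 2 alone. The other ratios kept their sign. That of Th to Fam19a4 ran from 0.30 (without female 21) to 0.53, and that of Th to Slc18a2 from 0.28 (without male 11) to 0.59 (without female 19). The ratio of Th to Fam19a4 was 0.52 in batch 2 alone (unadjusted p = 0.0625, exact), and the one to Slc18a2 was 0.44 on the log2(RPKM + 1) scale (unadjusted p = 0.0273, exact). Causes were not tested.

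At 27.6 to 44.6 M reads, Dbh and Ddc lie at the limit of detection in most samples. Replicates are mice, but batch 1 held females only.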
